A study of Homo sapiens with 6 samples.

Results

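The 10 genes described here belong to the Notch pathway: the receptors NOTCH1, NOTCH2 and NOTCH3, the ligands JAG1, JAG2, DLL1 and DLL4, the transcriptional repressors HES1 and HEY1, which Notch switches on, and ATOH1, the secretory lineage factor that HES1 represses in the gut. They were taken by gene symbol from a table of 58735 genes, and all 10 were found in it. The RNA came from HCT-8, an established human colon cancer line. The 3 5-FU samples had received 5-fluorouracil at its 10% inhibitory concentration, a low dose meant to resemble continuous infusion, and the 3 control samples had no treatment; the sources used here give neither the molar dose nor the duration. Nothing in the labels makes the 3 samples of a group separate cultures. The p-values set the difference between the groups against the spread within them, and that spread may be only technical. Gene positions are those of the deposited table, on build GRCh38.

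In the Notch pathway a ligand on one cell binds a receptor on its neighbour. The protease ADAM10 and then the gamma-secretase complex cut the receptor, and the freed intracellular part joins the DNA-binding protein RBPJ and a MAML coactivator on target genes such as HES1 and NRARP. In the intestinal crypt this signal keeps progenitors dividing and steers cells to the absorptive fate, while cells with little Notch signal express ATOH1 and the ligand DLL1 and become secretory. In bulk RNA, fewer cells that express a gene and less RNA of it per cell cannot be told apart.

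Gene counts summed to 18459939 to 20613228 in the 5-FU libraries and to 21659252 to 23495607 in the control libraries. Mitochondrially encoded genes took 25.5% to 28.5% of counts after 5-FU and 4.66% to 4.88% in control; left out of the fit, they moved no Notch gene across the threshold. Of 10 markers of intestinal epithelium, 9 averaged at least 1 CPM (CPM, counts scaled by library total and by the trimmed mean of M-values, TMM), and CDX1 did not. They summed to 3526 to 4491 CPM in 5-FU and 4767 to 6595 CPM in control libraries, with no overlap; of the 9 tested, LGALS4 (-2.11 on the log2 scale), CDX2 (-1.14), EPCAM (-0.95) and KRT8 (-0.57) fell, KRT20 rose (1.74) and 4 were not called. Their part in the changes of the Notch genes was not tested. Most of the transcriptome moved: 70.2% of the 19771 tested genes had an adjusted p under 0.05 in edgeR's quasi-likelihood test. Genes called higher after 5-FU made up 36.3% of those tested and genes called lower 33.9%, and the median log2 fold change was 0.09.

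Of the 10 Notch genes, 9 had enough counts to be tested. After 5-FU 3 rose (NOTCH3, DLL1 and DLL4), none fell and 6 were not called, at a median log2 fold change of 0.13. The share called was 33.3%, all of it higher. Over all tested genes 70.2% were called and 36.3% were called higher. Of the 6 with a mean count of at least 500, a level set after the values were seen, 1 was called, NOTCH3, where 76.1% of the tested genes of that depth were called. The groups did not overlap for 2 of the 9, NOTCH3 and DLL4, where 74.3% of all tested genes were without overlap. With upper-quartile factors, which move the median of all genes up by 0.36 on the log2 scale, 6 of the 9 were called higher. The added ones were NOTCH1, JAG2 and HES1, and over all genes 9602 of 19771 were called higher. At a mean count of at least 50, 5 of 8 members were called higher, the added ones being NOTCH1 and HES1. Over all genes 5141 of 14068 were called higher in that setting.

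**Figure D1:**
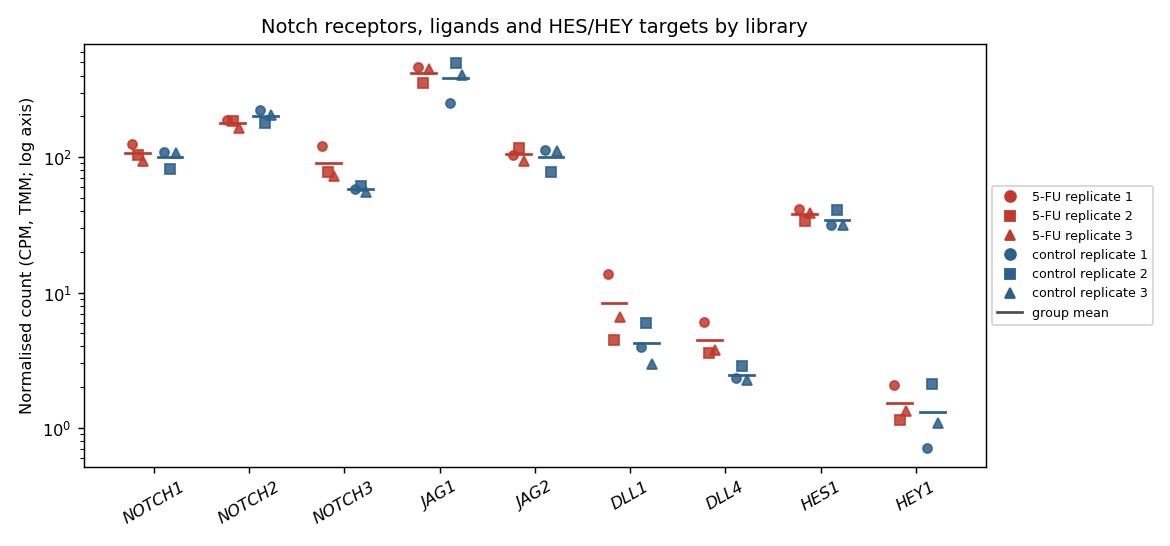
Normalised counts (CPM, log axis) of the 9 detected Notch genes in each library, 5-FU in red left of control in blue, with a bar at each group mean; ATOH1 is not drawn because it had no counts. The 5-FU points lie above all control points for NOTCH3 and DLL4, and 5-FU replicate 1 is the highest library for NOTCH3, DLL1 and DLL4.

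The receptor NOTCH3 (ENSG00000074181, chromosome 19 at 15159038 to 15200981), known from vascular smooth muscle and from some epithelial tumours, rose 1.55-fold. It had 120.1, 77.8 and 72.1 CPM in the 5-FU libraries, against 58.1, 61.0 and 55.0 CPM in the control libraries. No control library reached the lowest 5-FU library, and 5-FU replicate 1 stood well above the other two. The mean was 90.0 ± 26.2 CPM in 5-FU and 58.0 ± 3.02 CPM in control cells (SD, n = 3 each), at a log2 fold change of 0.63 (SE 0.17, edgeR adjusted p = 0.00685). Without 5-FU replicate 1 it was 0.38 and still passed (edgeR adjusted p = 0.0108). On the deposited FPKM table it did not pass (log2 fold change 0.40 on the log2(FPKM + 1) scale, limma adjusted p = 0.0505). The median of the 16093 genes tested on that scale was -0.20, against 0.09 over the 19771 genes tested with TMM. The 5 fibroblast markers summed to 34.3 to 64.7 CPM in 5-FU and 15.7 to 20.2 CPM in control libraries. Most of that was COL1A1, which rose 2.78-fold (log2 fold change 1.48, SE 0.24, edgeR adjusted p = 2.04e-04). COL3A1, too scarce to test, had counts of 13, 8 and 12 in the 5-FU libraries, against 1, 1 and 3 in the control libraries, with no overlap. PDGFRB had 2.45 to 2.95 CPM in 5-FU and 1.28 to 3.71 CPM in control libraries, and PDGFRA and COL1A2 had no counts outside 5-FU replicate 1. Their part in the rise of NOTCH3 was not tested.

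NOTCH1 (ENSG00000148400, chromosome 9 at 136494433 to 136545786) and NOTCH2 (ENSG00000134250, chromosome 1 at 119911553 to 120069626), the receptors that act in intestinal progenitors, were not called. NOTCH1 had 125, 103 and 94.5 CPM in the 5-FU libraries, against 109, 82.3 and 107 CPM in the control libraries, and the groups overlapped. Its log2 fold change was 0.11 (95% interval -0.21 to 0.43, edgeR adjusted p = 0.527). NOTCH2 had 188, 186 and 165 CPM in the 5-FU libraries, against 223, 179 and 203 CPM in the control libraries, with control replicate 2 inside the 5-FU range. Its log2 fold change was -0.17 (95% interval -0.45 to 0.11, edgeR adjusted p = 0.253), so a 2-fold change lies outside the interval of both genes. With upper-quartile factors NOTCH1 passed as higher (0.47, edgeR adjusted p = 0.0103) and NOTCH2 changed sign (0.19, not called). At a mean count of at least 50 NOTCH1 passed as higher too (0.36, edgeR adjusted p = 0.0462) and NOTCH2 was at 0.08, not called. Relative to the median of the genes tested in each setting, NOTCH1 stood at 0.01 with TMM, 0.02 with upper-quartile factors and 0.34 at a mean count of at least 50. On the same measure NOTCH2 stood at -0.26 with TMM, -0.26 with upper-quartile factors and 0.07 at a mean count of at least 50. NOTCH3 stood at 0.54 with TMM, 0.55 with upper-quartile factors and 0.87 at a mean count of at least 50. At a mean count of at least 50 the median is over 14068 genes, against 19771 with TMM or upper-quartile factors. The values of that setting therefore have another reference and cannot be set against the others. Near-identical copies of the 5′ part of NOTCH2 exist in the genome, and how reads that fit several genes were counted is not given, so its value is uncertain; the copy NOTCH2NLA had 1.51 to 2.09 CPM in 5-FU and 1.68 to 2.76 CPM in control libraries.

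Per unit of length the 3 receptors had means of 8.93 to 10.0 FPKM after 5-FU and 6.41 to 12.5 FPKM in control. NOTCH3 held a larger part of the sum of the 3 receptors after 5-FU. Their FPKM (fragments per length of transcript and per library, from the authors' table) summed to 25.5 to 32.5 in 5-FU and 25.5 to 31.4 in control libraries. NOTCH3 made up 35.5, 28.3 and 28.8% of that sum in the 5-FU libraries, against 20.6, 25.9 and 20.7% in the control libraries. NOTCH2 made up 31.1, 37.8 and 37.0% in the 5-FU libraries, against 44.3, 42.5 and 42.7% in the control libraries. Neither share overlapped between the groups, whereas that of NOTCH1 did, at 33.4 to 34.2% after 5-FU and 31.6 to 36.6% in control. The ratio of NOTCH3 to NOTCH2 counts, which no library scaling can move, was 0.419 to 0.638 in 5-FU and 0.260 to 0.340 in control libraries. NOTCH4, the endothelial receptor, was scarce and fell (0.815 to 1.42 CPM in 5-FU and 2.03 to 2.65 CPM in control libraries, log2 fold change -1.03, SE 0.29).

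**Figure D2:**
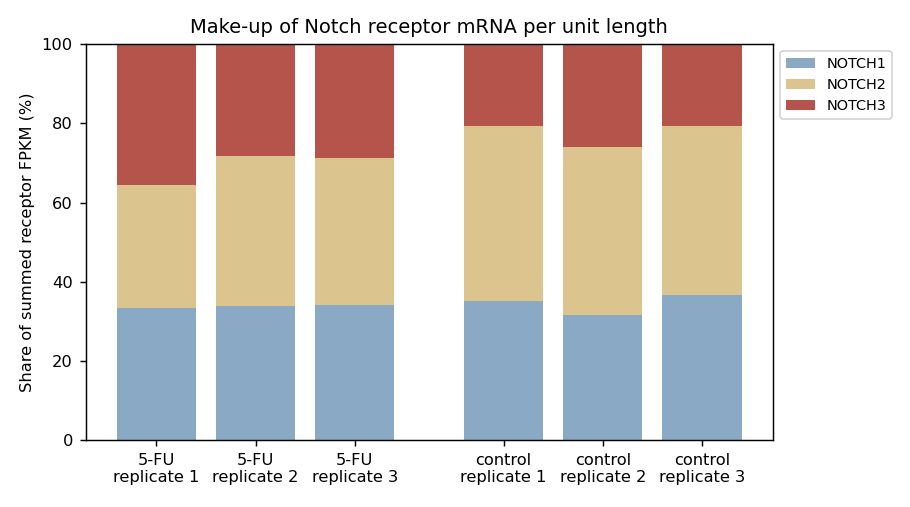
Share of the summed FPKM of NOTCH1, NOTCH2 and NOTCH3 that each receptor took in each library (%), with the 5-FU libraries left of the control libraries. NOTCH3, at the top of each bar, takes 28.3% to 35.5% after 5-FU and 20.6% to 25.9% in control.

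Among the ligands, JAG1 (ENSG00000101384, chromosome 20 at 10637684 to 10673999) was the most abundant per unit of length. It had 44.7, 36.1 and 45.8 FPKM in the 5-FU libraries, against 28.4, 54.0 and 45.4 FPKM in the control libraries, the highest FPKM of the 10 genes in both groups. In normalised counts it had 460.5, 351 and 445 CPM in the 5-FU libraries, against 252, 494 and 402 CPM in the control libraries. The control libraries spanned the whole 5-FU range, and the log2 fold change was 0.13 with a wide 95% interval (-0.34 to 0.60, edgeR adjusted p = 0.602). JAG2 (ENSG00000184916, chromosome 14 at 105140981 to 105168824), the other ligand of the Jagged type, had 104, 117 and 93.9 CPM in the 5-FU libraries, against 112, 78.3 and 112 CPM in the control libraries. It overlapped between groups as well (log2 fold change 0.06, 95% interval -0.27 to 0.39, edgeR adjusted p = 0.739). A gene on the same strand covers 7.33% of the exonic bases of JAG2. JAG1 took 65.0 to 73.2% of the summed FPKM of the 4 ligands in 5-FU and 58.5 to 78.4% in control libraries, and JAG2 took most of the rest. DLL1 took 2.39 to 5.99% after 5-FU and 1.48 to 2.71% in control, and DLL4 took 1.20 to 1.80% after 5-FU and 0.768 to 1.06% in control.

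DLL1 (ENSG00000198719, chromosome 6 at 170282206 to 170306565) and DLL4 (ENSG00000128917, chromosome 15 at 40929333 to 40939073), the Delta-like ligands of the crypt, rose at these low levels. DLL4 had counts of 120, 69 and 79 in the 5-FU libraries, against 52, 63 and 46 in the control libraries. That came to 6.11, 3.60 and 3.74 CPM in the 5-FU libraries, against 2.33, 2.85 and 2.27 CPM in the control libraries, with no overlap between the groups. The change was 0.85 on the log2 scale (SE 0.26, 1.80-fold, edgeR adjusted p = 0.013). DLL1 had counts of 271, 86 and 140 in the 5-FU libraries, against 88, 131 and 60 in the control libraries. In CPM it had 13.8, 4.49 and 6.63 CPM in the 5-FU libraries, against 3.95, 5.92 and 2.96 CPM in the control libraries, so 5-FU replicate 2 lay within the control range. Its log2 fold change was 0.95 (SE 0.38, 1.94-fold, edgeR adjusted p = 0.0395). Neither call held without 5-FU replicate 1, and control libraries mattered too. Without 5-FU replicate 1 the log2 fold change was 0.39 for DLL1 (edgeR adjusted p = 0.281) and 0.58 for DLL4 (edgeR adjusted p = 0.0585). Without control replicate 3 the values were 0.71 (edgeR adjusted p = 0.144) and 0.75 (edgeR adjusted p = 0.0507), and DLL1 was also lost without control replicate 1 (0.86, edgeR adjusted p = 0.109). DLL1 did not pass in limma-voom either (limma adjusted p = 0.067). DLL4 is also a gene of endothelium. The 5 endothelial markers summed to 3.88 to 5.71 CPM in 5-FU and 2.17 to 3.16 CPM in control libraries; all 5 had a higher mean after 5-FU. VWF, with 1.85 to 2.55 CPM in 5-FU and 0.942 to 1.27 CPM in control libraries, rose by 0.97 on the log2 scale (SE 0.28, edgeR adjusted p = 0.00934), and PECAM1 was not called (0.66, edgeR adjusted p = 0.076). KDR had no counts in any control library, and TEK, CDH5 and KDR stayed at or under 0.522 CPM. Their part in the rise of DLL4 was not tested.

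**Figure D3:**
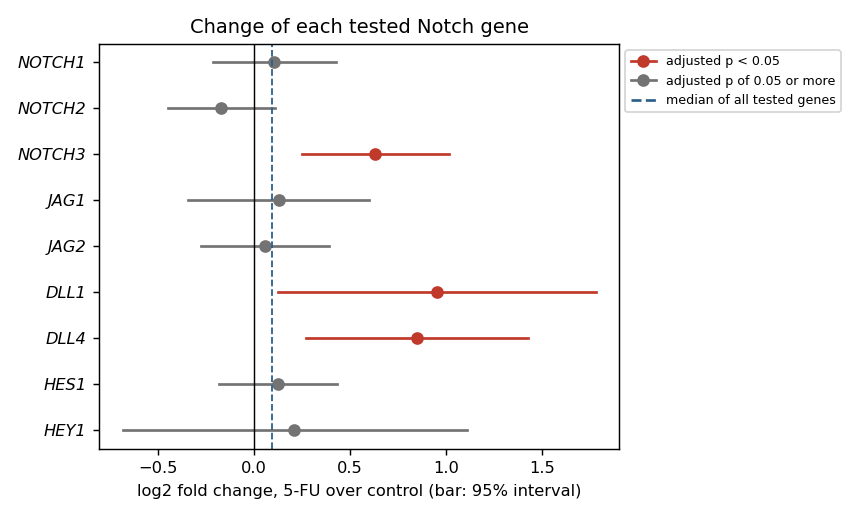
Log2 fold change of each tested Notch gene, 5-FU over control, with its 95% interval; red marks an adjusted p under 0.05, the dashed line the median of all tested genes. The intervals of NOTCH3, DLL1 and DLL4 lie above 0, and those of the other 6 genes span it.

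HES1 (ENSG00000114315, chromosome 3 at 194136145 to 194138732), the repressor through which Notch holds back ATOH1, is a textbook target. The stretch before its start is shown because it holds 2 matches to the RBPJ core. It lies at chr3:194135898-194136144 on the plus strand (RefSeq promoter table, build GRCh38.p14), 247 bases that end where the gene begins in the deposited table. The stretch before NRARP, at chr9:137302272-137302521 on the minus strand, is set beside it as that of the target gene that fell furthest among those tested; capitals mark TGGGAA, the core of the RBPJ site, searched on both strands.
HES1: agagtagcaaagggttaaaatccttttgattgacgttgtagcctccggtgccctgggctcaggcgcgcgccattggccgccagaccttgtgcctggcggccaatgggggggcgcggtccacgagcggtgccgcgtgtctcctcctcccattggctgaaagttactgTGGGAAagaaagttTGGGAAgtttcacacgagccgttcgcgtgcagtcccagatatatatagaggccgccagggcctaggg
NRARP: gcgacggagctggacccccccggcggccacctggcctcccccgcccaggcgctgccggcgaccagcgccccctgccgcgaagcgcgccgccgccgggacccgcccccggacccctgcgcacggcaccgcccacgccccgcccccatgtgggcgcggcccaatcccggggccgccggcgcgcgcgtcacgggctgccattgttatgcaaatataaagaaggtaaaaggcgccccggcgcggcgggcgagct
HES1 had 2 matches, both on the strand of the gene, which begin 84 and 70 bases before the RefSeq start, and NRARP had 0 on either strand. Whether the 2 matches of HES1 form a paired RBPJ site was not tested. Bases outside these stretches and other forms of the RBPJ site were not searched, and a link to the mRNA changes was not tested. A match to TGGGAA stood in 20.9% of 35116 RefSeq promoter windows of 250 bases, and 2 or more in 2.90%. The N-box CACNAG, through which HES proteins bind, matched 3 times before HES1, none of them overlapping TGGGAA, and it stood in 32.0% of all windows. Of the other members, 7 had a window in the table; none of these held TGGGAA, and NOTCH3 and ATOH1 held 1 N-box each.

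HES1 mRNA was not called. It had 41.2, 33.5 and 38.6 CPM in the 5-FU libraries, against 31.5, 40.5 and 31.7 CPM in the control libraries, with overlap between the groups. Control replicate 2 was about as high as the highest 5-FU library, and the other control libraries lay just under the lowest 5-FU library. The mean was 37.8 ± 3.88 CPM in 5-FU and 34.6 ± 5.13 CPM in control cells (SD, n = 3 each), with a log2 fold change of 0.13 (SE 0.14, 95% interval -0.18 to 0.43, edgeR adjusted p = 0.428). With upper-quartile factors it passed as higher (0.48, edgeR adjusted p = 0.0135), and so it did at a mean count of at least 50 (0.38, edgeR adjusted p = 0.0387). Relative to the median of the genes tested in each setting HES1 stood at 0.03 with TMM, 0.03 with upper-quartile factors and 0.36 at a mean count of at least 50. That last median is over 14068 genes and not 19771, so the 0.36 has another reference. HEY1 (ENSG00000164683, chromosome 8 at 79764010 to 79767863), a related repressor, was scarce, with counts of 41, 22 and 28 in the 5-FU libraries, against 16, 47 and 22 in the control libraries. Its 95% interval, -0.68 to 1.11 around a log2 fold change of 0.21, includes a 2-fold rise (edgeR adjusted p = 0.653).

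ATOH1 (ENSG00000172238, chromosome 4 at 93828753 to 93830964) had 0 counts in all 6 libraries. A count of 0 allows up to 3 counts per library, or 0.142 to 0.156 CPM in 5-FU and 0.135 to 0.148 CPM in control libraries, for counting error only. Its RNA was therefore not detectable at this depth in either group.

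HES and HEY relatives, listed together with other Notch target genes, moved in both directions. That list had 16 genes, of which 11 were tested. Of these 5 rose, 3 fell and 3 were not called, at a median of 0.19 on the log2 scale (7 higher and 2 lower with upper-quartile factors). The share called was 72.7%, near the 70.2% of all tested genes. NRARP, a direct target that dampens the Notch complex in turn, fell furthest of the 11 tested genes of the list. It had 4.89, 3.60 and 4.92 CPM in the 5-FU libraries, against 33.1, 21.2 and 26.8 CPM in the control libraries, with a wide gap between the groups. The change was -2.59 on the log2 scale (SE 0.20, edgeR adjusted p = 2.06e-06), and it passed in all 18 alternative settings (-2.78 to -2.23). For each 100 counts of HES1 there were 10.7 to 12.8 counts of NRARP after 5-FU and 52.2 to 105 in control, a ratio that no library scaling can move.

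CDKN1A, the cell cycle inhibitor p21, is a Notch target in some tissues and best known as a p53 target; it rose by 2.09 on the log2 scale (SE 0.23, edgeR adjusted p = 1.17e-05). BHLHE41, a repressor related to the HES proteins, rose by 1.97 (SE 0.22, edgeR adjusted p = 1.59e-05). The next genes were named after their values were seen. HES2 rose by 1.45 and HES7, which acts in the segmentation clock of the embryo, by 2.09. HES7 had 43.9, 18.8 and 21.3 CPM in the 5-FU libraries, against 6.82, 6.10 and 6.76 CPM in the control libraries, again with 5-FU replicate 1 the highest. HES6, which opposes HES1, fell by 1.58 on the log2 scale and HEYL by 0.70, whose call was lost with upper-quartile factors (-0.35). HES4 (0.17), the D-type cyclin gene CCND1 (0.19) and the crypt factor SOX9 (-0.18) were not called, though HES4 and CCND1 passed as higher with upper-quartile factors (0.53 and 0.55). OLFM4, a stem cell marker that Notch sustains in the intestine, was too scarce to test, with no counts in the 5-FU libraries, against 10, 24 and 12 in the control libraries; at a limit of 3 counts per library its mean was at least 4.71-fold lower after 5-FU.

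**Figure D4:**
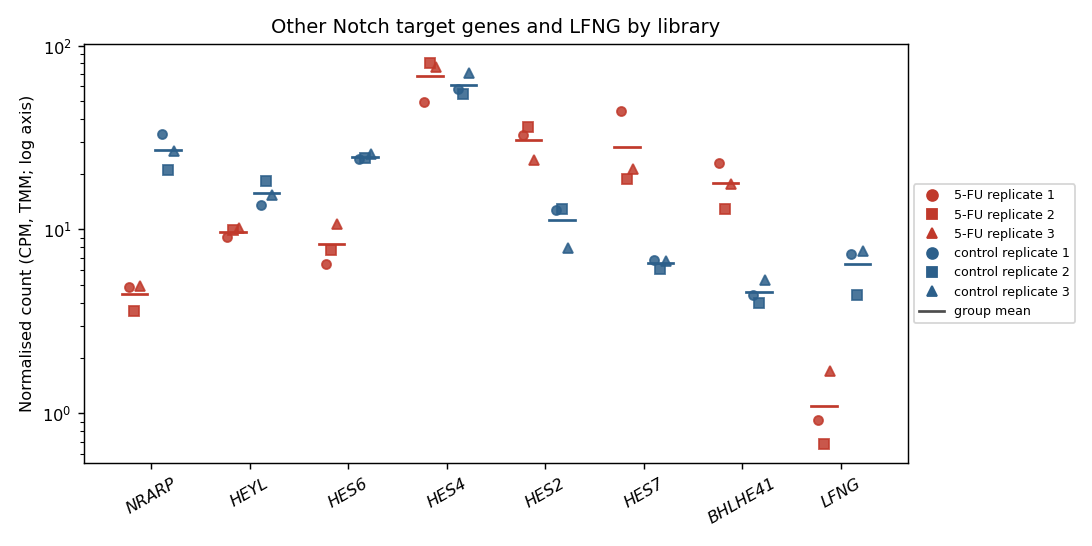
Normalised counts (CPM, log axis) of other Notch target genes, HES relatives and the glycosyltransferase LFNG in each library, 5-FU in red left of control in blue, with a bar at each group mean. NRARP, HEYL, HES6 and LFNG lie lower after 5-FU, HES2, HES7 and BHLHE41 higher, and HES4 overlaps.

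The secretory genes that ATOH1 controls or accompanies showed no common direction. Of 12, 8 were tested. Of these 2 rose, 3 fell and 3 were not called (2 higher and 1 lower with upper-quartile factors). The share called was 62.5%, against 70.2% of all tested genes. SPDEF, a factor of goblet and Paneth cell maturation, fell by 2.49 on the log2 scale (SE 0.43, edgeR adjusted p = 3.05e-04), with a mean of 0.563 ± 0.131 CPM in 5-FU and 3.20 ± 1.61 CPM in control cells (SD, n = 3 each). CREB3L1, a membrane-bound transcription factor of secretory cells, rose by 1.67 (SE 0.34) and FOXA1, a pioneer factor of gut epithelium, fell by 0.43 (SE 0.13). The call of FOXA1 was lost with upper-quartile factors (-0.07, edgeR adjusted p = 0.598) and at a mean count of at least 50 (-0.18, edgeR adjusted p = 0.207). The other called genes of the list were picked with values known. The mucin gene MUC2 rose (0.93, SE 0.31, edgeR adjusted p = 0.0173), with overlap between the groups. FOXA2 fell (-0.68, SE 0.27), a call lost with upper-quartile factors (-0.31) and with plain library totals (-0.57).

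The machinery that processes the receptors and carries the signal held genes that moved in both directions. Over 98 further pathway genes in 8 lists, 82 were tested, 20 rose and 39 fell (72.0% called, near the 70.2% of all tested genes), at a median of -0.24. The split depended on scaling: with upper-quartile factors 34 rose and 19 fell, while over all tested genes 9602 rose and 4614 fell with those factors, against 7171 and 6706 with TMM.

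Of 8 enzymes that put sugars on Notch, 4 fell and 1 rose (2 higher and 4 lower with upper-quartile factors). Called genes made up 62.5%, against 70.2% of all tested genes. LFNG, the Fringe enzyme that tunes which ligands a receptor answers, had 0.917, 0.678 and 1.70 CPM in the 5-FU libraries, against 7.36, 4.38 and 7.60 CPM in the control libraries. The groups lay far apart (log2 fold change -2.53, SE 0.35, edgeR adjusted p = 5.84e-05). POFUT1, which adds the fucose that Fringe extends, fell by 1.11 on the log2 scale (SE 0.14) and the xylosyltransferase GXYLT1 by 0.95 (SE 0.14). The Fringe relative RFNG, named after its value was seen, was the one that rose (0.40).

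Among 11 genes of receptor cleavage, 6 fell and 2 rose (4 higher and 2 lower with upper-quartile factors). The share called was 72.7%, near the 70.2% of all tested genes. The paralogs APH1A and APH1B, alternative scaffold subunits of gamma-secretase, went opposite ways. APH1A had 52.3, 66.3 and 68.9 CPM in the 5-FU libraries, against 149, 149.8 and 167 CPM in the control libraries. APH1B had 22.2, 19.0 and 21.1 CPM in the 5-FU libraries, against 8.03, 9.54 and 7.50 CPM in the control libraries. Their log2 fold changes were -1.31 (SE 0.13, edgeR adjusted p = 7.51e-06) and 1.31 (SE 0.15, edgeR adjusted p = 1.94e-05), each with no overlap between groups. An opposite-strand gene covers 14.1% of the exonic bases of APH1A, and whether counting used strand is not given. Nicastrin, NCSTN, the subunit that receives the substrate, fell by 0.79 on the log2 scale (SE 0.13). The next 2 genes were named with their values known. PSEN2, a catalytic subunit, rose by 0.40. ADAM10, which makes the first cut, fell by 0.40, a call lost with upper-quartile factors (-0.05) and with plain library totals (-0.30).

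Among nuclear partners of the cleaved receptor 8 of 11 fell, 2 rose and KAT2A, named with its value known, was not called. The median was -0.56 on the log2 scale (3 higher and 4 lower with upper-quartile factors). Called genes made up 90.9%, against 70.2% of all tested genes, and genes called lower 72.7%, against 33.9%. MAML1, the coactivator that completes the Notch complex, had 46.5, 47.9 and 48.0 CPM in the 5-FU libraries, against 119, 94.6 and 102 CPM in the control libraries (log2 fold change -1.15, SE 0.12, edgeR adjusted p = 9.53e-06). CDK8, a Mediator kinase that marks the Notch intracellular part for decay, fell by 1.11 on the log2 scale (SE 0.12) and the RBPJ-binding protein SNW1 by 0.98 (SE 0.11). RBPJ itself, named after its value was seen, had 52.2, 59.9 and 57.1 CPM in the 5-FU libraries, against 112, 93.5 and 101 CPM in the control libraries (log2 fold change -0.86, SE 0.12). The other Mastermind genes, MAML2 (0.55, edgeR adjusted p = 0.026) and MAML3 (0.52, edgeR adjusted p = 0.0274), were the ones that rose. Both were also named with values known, and the groups overlapped for MAML2.

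Corepressors that hold RBPJ targets silent fell for 8 of 17 tested genes, with 2 higher and 7 not called (7 higher and 4 lower with upper-quartile factors). The share called was 58.8%, against 70.2% of all tested genes. RITA1, which takes RBPJ out of the nucleus, fell by 1.60 on the log2 scale (SE 0.14), HDAC2 by 1.25 (SE 0.12) and HDAC1 by 1.10 (SE 0.12); an opposite-strand gene covers 10.7% of the exonic bases of RITA1. The large scaffold SPEN (-0.23), likewise picked with its value known, was not called.

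Ubiquitin ligases and adaptors of ligands and receptors were split, with 6 of 13 tested genes higher, 5 lower and 2 not called. With upper-quartile factors 8 were higher and 2 lower. Called genes made up 84.6%, against 70.2% of all tested genes. Of the ligases that prime ligands, MIB2 rose (log2 fold change 0.92, SE 0.11) and NEURL1B fell (-1.53, SE 0.15). Their paralogs, picked with values known, had the opposite sign, as MIB1 fell (-0.54; with upper-quartile factors -0.18, not called) and NEURL1 rose (1.14). FBXW7, which targets the Notch intracellular part for degradation, had a mean of 52.3 ± 5.94 CPM in 5-FU and 27.3 ± 1.08 CPM in control cells (SD, n = 3 each) (log2 fold change 0.94, SE 0.12, edgeR adjusted p = 4.60e-05). Of 8 other receptors and ligands 3 were tested, and NOTCH4 and the secreted EGFL7 (-0.67, SE 0.16) fell. That is 66.7% called, near the 70.2% of all tested genes. Both calls were lost with upper-quartile factors (edgeR adjusted p = 0.0574 and 0.0817).

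**Figure D5:**
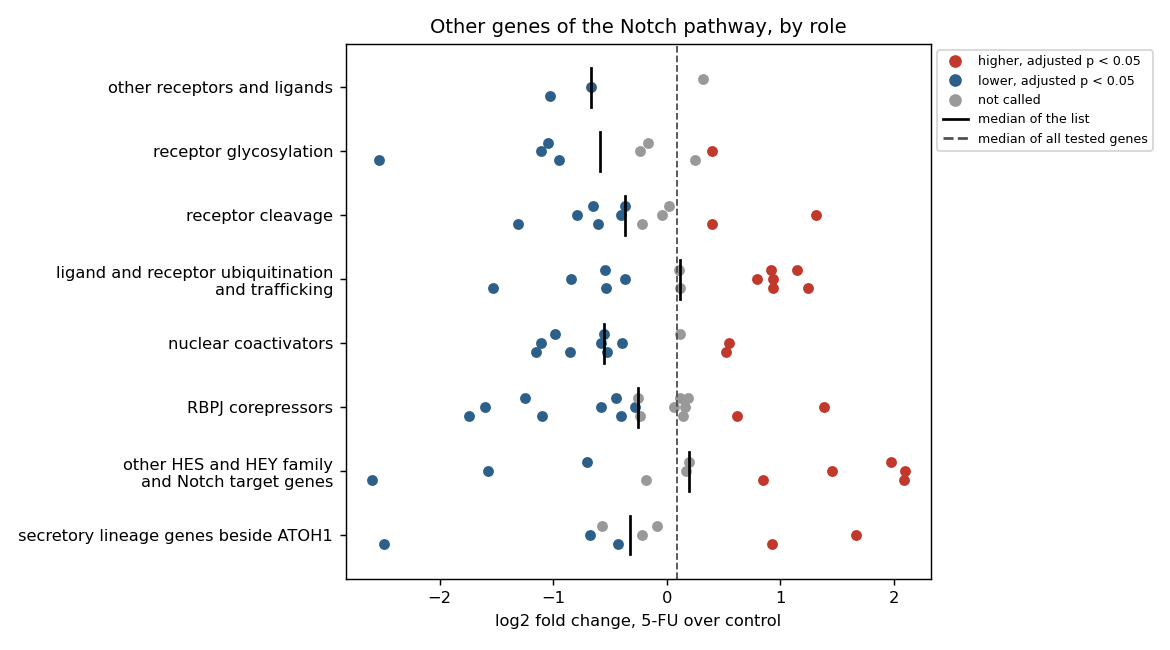
Log2 fold change of each tested gene of the 8 wider lists, 5-FU over control, by role, red for higher and blue for lower at an adjusted p under 0.05, with each list's median as a black bar and the median of all tested genes dashed. Most nuclear coactivators and cleavage genes lie left of 0, and the ubiquitination genes lie on both sides.

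By mean FPKM, JAG1 came first in both groups, followed by HES1, JAG2, NOTCH2, NOTCH1, NOTCH3, DLL1, DLL4, HEY1 and ATOH1. HES1 and JAG2 overlapped in range in both groups, as did NOTCH2 and NOTCH1; in control JAG2 also overlapped NOTCH2, and DLL4 overlapped HEY1. NOTCH1 and NOTCH3 overlapped after 5-FU, at 9.68 ± 1.07 and 8.93 ± 2.28 FPKM, and did not in control, at 9.98 ± 1.66 and 6.41 ± 0.244 FPKM (SD, n = 3 each).

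Protein-coding genes of most like pattern were sought for the 7 members with a mean count of at least 100, by the root mean square difference of centred log2 CPM over the 6 libraries, among 11417 genes. The 3 nearest were TPBG, DDX31 and CTDP1 (0.025 to 0.054) for NOTCH1, DIDO1, PHLPP2 and TFCP2L1 (0.03 to 0.034) for NOTCH2 and PTH1R, KIAA0513 and NBPF1 (0.051 to 0.056) for NOTCH3. For the ligands they were CACNA2D2, VPS37D and WDR91 (0.092 to 0.11) for JAG1, DROSHA, SCRIB and SCMH1 (0.047 to 0.076) for JAG2 and SPATA24, BHLHE40 and SPRY3 (0.22 to 0.24) for DLL1. For HES1 they were CACFD1, BCAS3 and TAOK3 (0.038 to 0.059). The median difference over all genes lay between 0.372 and 0.861 for these members, and all genes share the same 6 libraries and 2 groups.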

How the data were processed

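RNA was sequenced from 3 5-FU and 3 control samples of HCT-8 cells, with the NEBNext Ultra kit after TRIzol extraction, per the labels. Per the submitters' processing notes, the tools were DESeq2 1.16.1, HISAT2 2.0.5 and featureCounts 1.5.0-p3, and the build was GRCh38; strand setting and the counting of multi-mapping reads are not stated there. The authors deposited whole-number counts per gene and FPKM. In each library the deposited FPKM equal the count over gene length and 1 constant. That constant was 1.07 to 1.16 times the count total in 5-FU and 0.892 to 0.986 times in control libraries. Relative to count totals, FPKM are therefore scaled further down in 5-FU than in control libraries.

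Groups came from the treatment label. Counts were tested in edgeR 4.0.16 (R 4.3.3): filterByExpr (minimum count 10, minimum total 15), TMM, group as the design, quasi-likelihood test, Benjamini-Hochberg adjustment over all 19771 tested genes, called under 0.05. Standard errors (SE) were taken as the absolute coefficient divided by the square root of its F statistic. Scaling, filters, the test, each library in turn and a replicate block were varied one at a time. The procedure was tested on simulated data in which few genes changed, balanced between higher and lower. These data differ, with 70.2% of tested genes called, so that test does not bear on the scaling here. FPKM alternatives used limma 3.58.1 on log2(FPKM + 1) or log2(FPKM + 0.1), on genes at 1 FPKM or more in at least 3 samples or on all, a scale that understates changes of low genes; DESeq2 1.42.0 was another alternative. Exon overlaps came from GENCODE release 29, and 8 of 10 members matched the RefSeq promoter table.

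The members and lists were chosen with earlier results of these data known. Named were all members, up to 3 genes of smallest p among those called in each of 8 lists, and the 3 genes of most like pattern. Other genes of the 8 lists are marked as named after their values were seen.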

Additional observations from a re-analysis of the deposited data

How the results depend on the processing

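The 23 named pathway genes gave 405 values under the alternatives. Of these, 401 kept direction and call, 4 lost the call (EGFL7, NOTCH4 and FOXA1, given above) and none reversed. The 23 were picked for the smallest p of each list in the main fit, so this count does not speak for the other wider genes. The 9 tested members, not picked by p, gave 157 values. Of these, 118 kept direction and call, 13 lost the call, 5 gained it and 21 changed sign. Members called higher numbered 3 as reported, 6 with upper-quartile factors, 5 at a mean count of at least 50 and 0 on each FPKM scale. The filtered FPKM scales tested 7 members, without DLL4 and HEY1, and the unfiltered one tested 9. With a library left out 1 to 3 members were called higher, with 1 without 5-FU replicate 1 or control replicate 3. None was called lower in any of the 18 settings. On filtered FPKM the genes called higher over all numbered 4320 (log2(FPKM + 1)) and 4268 (log2(FPKM + 0.1)), with 7136 and 7119 lower, of 16093 tested; counts gave 7171 higher and 6706 lower of 19771. Of the wider genes 34 were higher and 19 lower with upper-quartile factors, and 11, 11 and, unfiltered, 12 were higher on the FPKM scales, with 42, 42 and 43 lower, against 20 higher and 39 lower as reported. The sign changes were in genes not called before or after. On log2(FPKM + 1), filtered or not, NOTCH1 was at -0.033, JAG2 at -0.068 and HES1 at -0.012, and on log2(FPKM + 0.1) they were at -0.036, -0.071 and -0.013. Without the low-count filter NOTCH1 was at -0.042, JAG1 at -0.016, JAG2 at -0.089 and HES1 at -0.020. NOTCH2 was at 0.19 with upper-quartile factors and 0.085 at a mean count of at least 50. With a library left out NOTCH1 ranged from -0.050 to 0.17, JAG1 from -0.13 to 0.32, JAG2 from -0.13 to 0.11 and HEY1 from -0.12 to 0.72. The cause was not tested. With a replicate block 3 members were called higher, and 6863 genes over all were higher and 6380 lower. The deviations of same-numbered libraries had correlations of -0.07, -0.20 and 0.06. With 3 libraries per group these values cannot tell whether same-numbered samples were handled together. Low counts limit DLL1, DLL4 and HEY1, and ATOH1 was below detection.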

Other observations

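The first 5-FU library stood at the top of the 5-FU group for many genes that rose. It was the highest of the 3 for 16 of the 23 Notch pathway genes called higher (69.6%), and for 59.5% of all 7171 genes called higher. Among the 39 pathway genes called lower it was the lowest for 21, as it was for 4406 of all 6706 genes called lower. Its mitochondrial share, 28.5%, was also the highest of the 6 libraries. The part of this library in the calls of NOTCH3, DLL1 and DLL4 is given above by the values without it.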
